A study of Mus musculus with 9 samples.

Results

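The mitosis and spindle checkpoint genes analysed here are 40 genes picked by name for their role in cell division. The rule uses no measured value, but the list was drawn up when earlier results of these data were known. All 40 were among the 29069 genes of the table, and all 40 passed the filter on low values (a mean above 5 over the samples) that left 18156 genes for testing. They were sorted by role. The roles comprise 6 genes of mitotic entry, 3 centrosomal and mitotic kinases, 3 subunits of the chromosomal passenger complex, 5 spindle checkpoint genes, 4 genes of the anaphase-promoting complex (APC/C) and separase step, 6 centromere and kinetochore genes, 5 spindle motors and assembly factors, 5 central spindle and cytokinesis genes, 2 markers of chromosomes and proliferation, and the transcription factor Foxm1.

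Mouse embryonic stem cells (mESC) spent 24 h in 1 of 3 media, and the total RNA of 3 samples per medium was sequenced. The cells were of the D3 line, an established line grown here without feeder cells. In ground-state medium (GS), the serum-free base N2B27 held the MEK inhibitor PD0325901 (1 μM), the GSK-3 inhibitor CHIR99021 (3 μM) and the cytokine LIF (20 ng/mL). Differentiation medium (DM) was a DMEM base with 10% fetal bovine serum and without LIF or either inhibitor, so that base, serum, LIF and inhibitors changed together between GS and DM. The NO medium was DM with 250 μM DETA/NO, a donor that releases nitric oxide, and it differed from DM by the donor alone. A single line was used. RNA was taken from a dish per sample, and whether the dishes of a medium were seeded from separate cultures is not given in the sources used here. The p-values measure the spread between these dishes.

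Entry into mitosis is driven by Cdk1 bound to A- and B-type cyclins and released from inhibition by Cdc25 phosphatases. The spindle checkpoint, with Bub1, Bub1b, Bub3, Mad2l1 and Ttk, watches kinetochores that are not attached to microtubules and holds back Cdc20, the activator of the APC/C, which otherwise marks cyclin B and securin (Pttg1) for destruction and so frees separase (Espl1). Many of these genes share a transcription programme that peaks late in the cell cycle. It is held down by the DREAM complex in resting cells and driven by B-Myb (Mybl2) and FoxM1 in dividing ones. The promoter element for this is the cell cycle genes homology region (CHR, TTTGAA). Another element, the CCAAT box, is also common in promoters of mitotic genes. Embryonic stem cells divide fast and carry high levels of mitotic transcripts.

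The shared promoter elements are shown first, because the members were picked by function and not by sequence. The RefSeq promoter table (GRCm38.p6, 250 bases before to 50 after each start of transcription) held 33 of the 40 members. Both strands were searched for TTTGAA and for CCAAT, which can overlap each other only by an end base, and a gene counted when any of its windows held the letters. TTTGAA was present in 23 of the 33 (69.7%), against 20.2% of the 27025 genes in the table and 14.3% of the 11521 tested genes that it holds. CCAAT was present in 25 of the 33 (75.8%), against 41.1% and 42.5%. Both stood in the promoters of 20 of the 33 members (60.6%), against 8.0% of all genes in the table and 6.0% of the tested ones. A match describes letters in a window, not a bound site.

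The following stretches of 30 bases are given in the direction of transcription with TTTGAA, or TTCAAA where the element lies on the opposite strand, in capitals. Kif23 and Spc25 are shown because they were the members whose levels passed the test, and Cdk1, Plk1, Ccnb2, Bub1b, Cdc20 and Ube2c because they stand for mitotic entry, the kinases, the checkpoint and the APC/C.
Kif23 (chr9:61946780-61946809, minus strand): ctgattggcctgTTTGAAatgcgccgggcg
Spc25 (chr2:69206172-69206201, minus strand): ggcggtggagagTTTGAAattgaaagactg
Cdk1 (chr10:69352966-69352995, minus strand): ctgattggctccTTTGAAcgtctacgtgca
Cdk1 (chr10:69352910-69352939, minus strand): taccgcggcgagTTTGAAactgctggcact
Plk1 (chr7:122159453-122159482, plus strand): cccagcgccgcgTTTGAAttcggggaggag
Ccnb2 (chr9:70421533-70421562, minus strand): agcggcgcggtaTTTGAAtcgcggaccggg
Bub1b (chr2:118598231-118598260, plus strand): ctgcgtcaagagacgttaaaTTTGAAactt
Cdc20 (chr4:118437344-118437373, minus strand): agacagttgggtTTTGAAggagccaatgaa
Ube2c (chr2:164769888-164769917, plus strand): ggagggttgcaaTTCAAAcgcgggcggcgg

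Kif23, which was lower in NO, and Spc25, which was higher in NO than in DM, both carried the element close to the start site. It began 2 bases after the start in Kif23 and 24 bases after it in Spc25. Both also held CCAAT or its reverse ATTGG, at 7 bases before the start in Kif23 and at 55 and 23 bases before it in Spc25. The elements were thus found alike in the members that moved in opposite directions. No TTTGAA was present in the windows of Ccnb1 and Cdc25b. The Ccnb1 window held CCAAT at 99 and 67 bases before the start, and that of Cdc25b held ATTGG at 28 bases before it. These CCAAT stretches are shown because Cdc25b was the member nearest to the threshold among those that did not pass it.
Cdc25b (chr2:131186908-131186937, plus strand): accggcgcccccATTGGtggcgtctggcgg
Ccnb1 (chr13:100786568-100786597, minus strand): gaacccgcggcgCCAATgggaagagagcga
Ccnb1 (chr13:100786536-100786565, minus strand): gccacgaactggCCAATgaggagcgagcgg

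The deposited values are counts scaled by a size factor and rounded (normalised counts). The estimated number of assigned reads ran from 14307523 to 27061091 per sample, so that 1 read was worth between 0.70 and 1.32 normalised counts. All 10 embryonic stem cell markers had at least 609 normalised counts in every sample. Their summed level lay between 114991 and 118112 in GS, between 93824 and 103135 in DM and between 59927 and 99104 in NO. NO replicate 2 had the lowest sum and stood apart from the other NO samples. It also had the highest summed level of 6 markers of the 2-cell-like state, at 1163 against 166 and 374 in NO replicates 1 and 3 and 49 to 82 in GS, and of 6 trophoblast markers, at 1130 against 320 and 497 in the other NO samples and 632 to 657 in GS. The trophoblast markers did not move as a group: relative to GS, Cdx2 (0.122-fold, adjusted p = 0.011, limma) and Eomes (0.361-fold, adjusted p = 0.00144) were lower in NO, and Krt7 (22.7-fold, adjusted p = 0.00122) and Hand1 (7.7-fold, adjusted p = 0.0102) higher. Summed primitive endoderm markers were 200, 539 and 287 in the NO samples and fibroblast markers 381 to 406, the latter within the 318 to 496 of GS. Single fibroblast markers differed all the same, with Thy1 (2.78-fold) and Col1a1 (2.8-fold) higher and Pdgfrb (0.512-fold) lower in NO than in GS (adjusted p = 0.000676, 0.0207 and 0.0169, limma). Lum and Postn (fibroblast), Foxa2 (primitive endoderm), Cdx2 (trophoblast) and Usp17lc (2-cell-like) were at 0 in at least 1 sample. The part of these differences in the results was not tested. Where a call was lost without NO replicate 2, the value without it is given.

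Every mitotic gene was well expressed in all 3 media. The lowest value of a member in any sample was 147 (Pttg1) and the highest 19517 (Top2a). The 40 genes together made up 0.665%, 0.667% and 0.722% of the normalised counts of the 3 GS samples, 0.705%, 0.716% and 0.629% in DM and 0.717%, 0.740% and 0.751% in NO. The means were 0.685% ± 0.0323 (SD, n = 3) in GS, 0.683% ± 0.0474 in DM and 0.736% ± 0.0173 in NO, and the NO values overlapped with the highest GS value. In bulk RNA a smaller share of cells in mitosis and less RNA of these genes per cell cannot be told apart.

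On the scale of normalised counts per kilobase of exon, which allows levels to be compared between genes, the same 5 genes led in each medium. In GS these were Cdc20 at 2347 ± 196 (SD, n = 3), Ccnb1 at 2014 ± 370, Top2a at 1892 ± 240, Ccnb2 at 1607 ± 156 and Bub1b at 1506 ± 47.3. Cdc20 led in all media, with 2711 ± 650 in DM and 2926 ± 499 in NO. In GS, neighbours in this order differed by less than the larger of their SDs, apart from Top2a and Ccnb2. Pttg1, Cdc25c and Nuf2 were the lowest 3 in every medium, with Pttg1 at 105.3 ± 7.85 in GS, 82.8 ± 14.1 in DM and 90.7 ± 17.2 in NO. No member moved by more than 8 of 40 places between media. Reads of Ccnb1 are uncertain, since 51.9% of its transcript is at least 97% identical, over 60 bases or more, to Ccnb1-ps, Gm12856 or Gm8416. Exons of another gene overlap 29.3% of Kif20a (Cdc23) and 22.8% of Ube2c (Tnnc2), and whether the strand was used in counting was not stated.

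**Figure D1:**
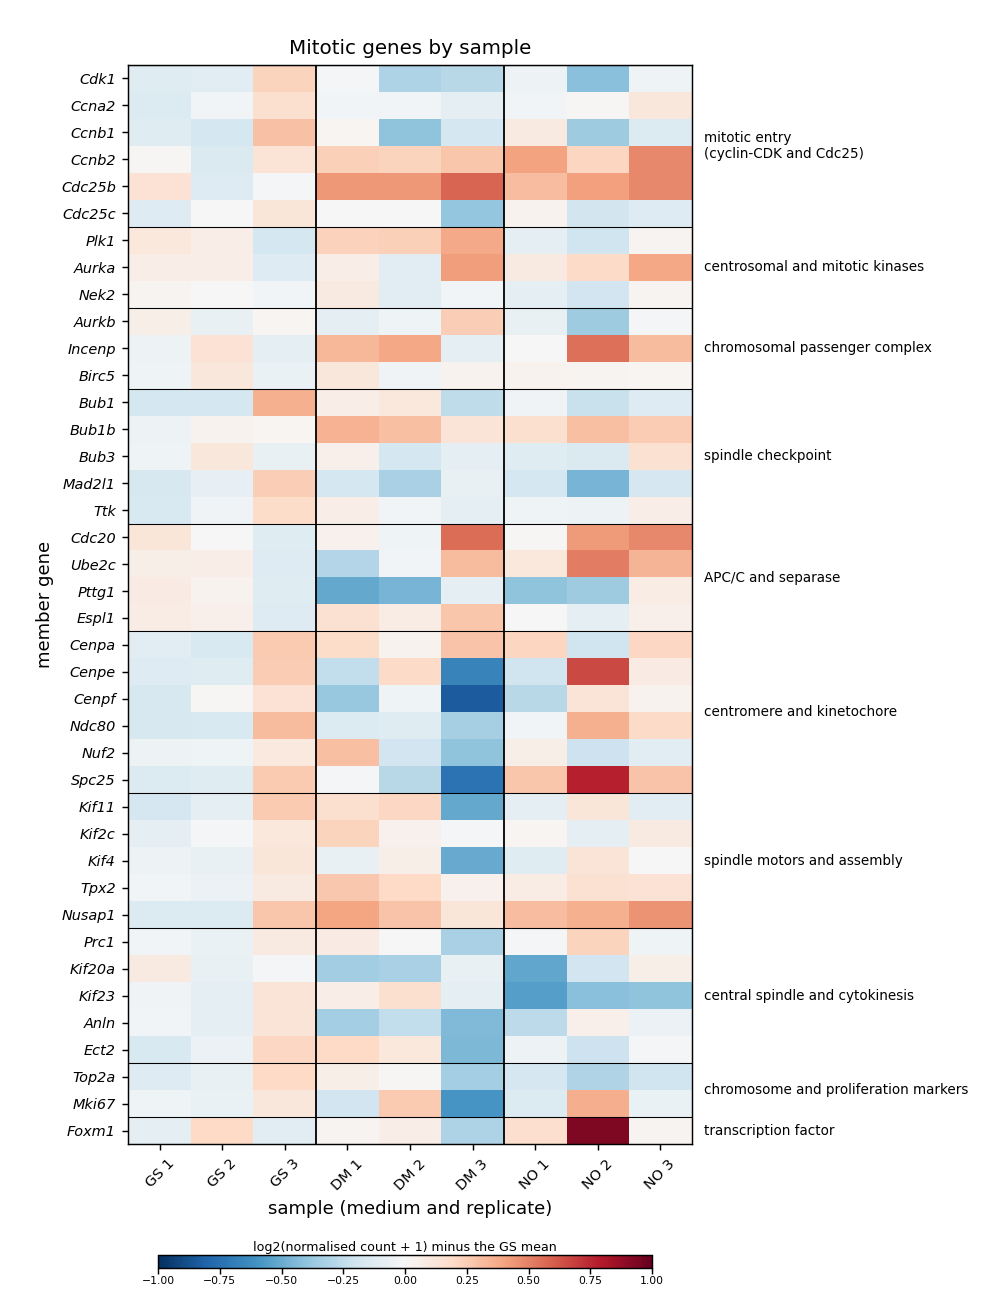
Heat map of the 40 mitotic genes (rows, grouped by role) in the 9 samples (columns), coloured by log2(normalised count + 1) minus the mean of the 3 GS samples. Most cells are pale, GS replicate 3 is red and DM replicate 3 blue over many rows, and Spc25 and Foxm1 are darkest in NO replicate 2.

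The comparison of DM with GS asked what happened to the mitotic genes when inhibitors and LIF were replaced by serum. No member passed the test, which was limma on log2(normalised count + 1) over all 18156 genes. At a Benjamini-Hochberg adjusted p under 0.05, 0 of 40 were higher and 0 of 40 lower. Of all genes, 4.37% were higher and 2.32% lower. The unadjusted p was under 0.05 for 3 of the 40 (Cdc25b, Plk1 and Anln) and for 3611 of all 18156. With the added requirement of at least a 2-fold change, the threshold of the study, 0 members passed, against 4.2% of all genes. The median log2 fold change of the members was -0.05, beside -0.00 over all genes, and the values ran from -0.42 (Cenpf) to 0.48 (Cdc25b), with 15 above 0 and 25 below.

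The absence of a call could stem from wide errors, so the 95% intervals were examined. For all 40 members (100%) the interval of the DM to GS difference lay within a 2-fold change either way, against 56.1% of all genes. For 29 of 40 (72.5%) it lay within 1.5-fold, against 26.7% of all genes. Among the 100 other genes of mitosis and the 20 S phase genes described below, it lay within 2-fold for 98% and 95%. Within 1.5-fold it lay for 58% and 85% of these lists. The median standard error of a log2 fold change was 0.16 for the members and for both of these lists, and 0.24 for all genes. All genes include many of lower level than any member, and the part of level in this contrast was not tested. The DM and GS samples did not overlap for 6 members (15%), against 29.6% of all genes.

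The comparison of NO with GS set the donor-treated cells against the ground state. Kif23 was the only member called: 0 of 40 were higher, against 13.4% of all genes, and 1 of 40 was lower, against 6.64%. No member passed both thresholds, against 11.7% of all genes. The unadjusted p was under 0.05 for 4 of the 40 (Kif23, Ccnb2, Cdc25b and Nusap1) and for 6290 of all 18156 genes. The median log2 fold change was -0.00, beside -0.02 over all genes, with 20 members above 0 and 20 below. The intervals of all 40 members stayed within 2-fold, against 50.7% of all genes, and those of 28 (70%) within 1.5-fold, against 20.8%. Of the other genes of mitosis, 94% stayed within 2-fold and 53% within 1.5-fold, and of the S phase genes 95% and 65%.

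By their recipes, the media of NO and DM differed by the donor only. Spc25 was higher and Kif23 lower: 1 of 40 members was called higher, against 9.01% of all genes, and 1 of 40 lower, against 5.24%. No member passed both thresholds, against 8.55% of all genes. The unadjusted p was under 0.05 for 4 of the 40 (Spc25, Kif23, Plk1 and Ndc80) and for 5675 of all 18156 genes. The median log2 fold change was 0.03, beside 0.00 over all genes, with 25 members above 0 and 15 below. The interval lay within 2-fold for 39 of 40 members (97.5%), Spc25 being the exception, against 52.5% of all genes. It lay within 1.5-fold for 31 (77.5%), against 22.9%. For the other genes of mitosis the shares were 94% within 2-fold and 56% within 1.5-fold, and for the S phase genes 95% and 50%. Spc25 was also the only member whose log2 fold change exceeded 0.5 in size in any comparison, a size reached by 28.4% of all genes in DM against GS, 39.2% in NO against GS and 36.7% in NO against DM. The 3 comparisons share samples and are not independent of each other.

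**Figure D2:**
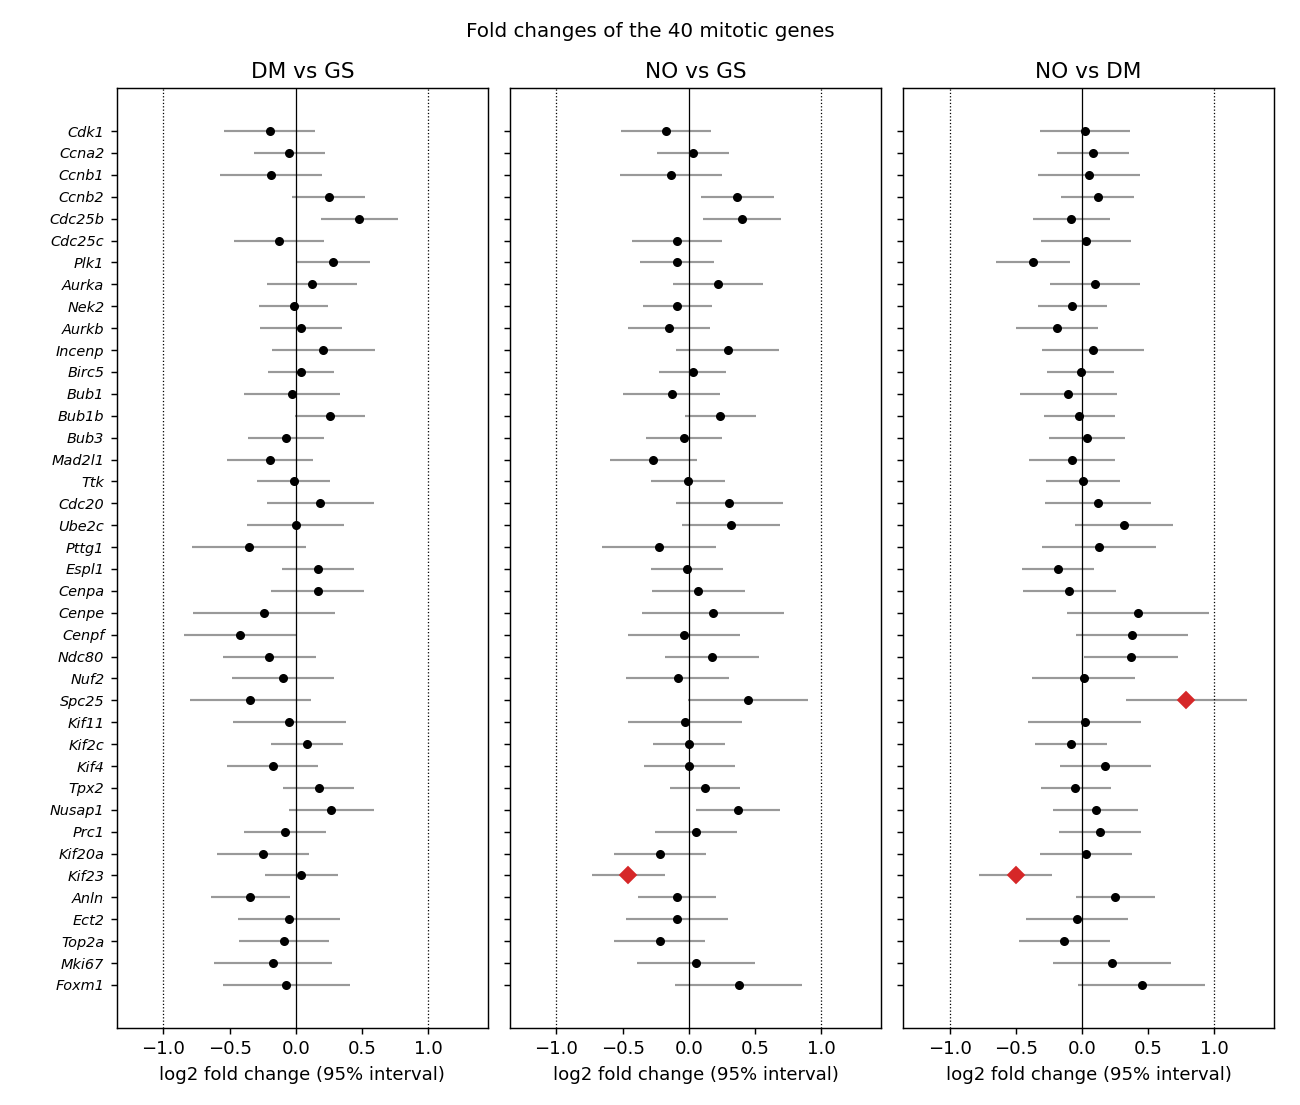
Log2 fold change (points) with its 95% interval (lines) of each of the 40 mitotic genes in the 3 comparisons, from limma on log2(normalised count + 1). Red diamonds mark adjusted p-values under 0.05, which only Kif23 (NO against GS and NO against DM) and Spc25 (NO against DM) reached. Dotted lines mark a 2-fold change, which only the interval of Spc25 in NO against DM crosses.

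Kif23 encodes the kinesin MKLP1, which with Racgap1 forms centralspindlin and gathers the central spindle for cytokinesis. The gene lies at chr9:61915905-61946774 (GRCm38, minus strand) and its exons overlap no other gene. Its normalised counts were 2906, 2806 and 3265 in GS, 3121, 3345 and 2788 in DM and 2040, 2238 and 2257 in NO. All 3 NO samples lay below all 6 others, and GS and DM overlapped. The level in NO was 0.729 of that in GS (log2 fold change -0.46, SE 0.13, adjusted p = 0.0261, limma) and 0.708 of that in DM (-0.50, SE 0.13, adjusted p = 0.0245), whereas DM and GS differed by 0.04 on the log2 scale (95% interval -0.23 to 0.32, adjusted p = 0.892).

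The direction of Kif23 held in each of 21 alternative fits, but the call was lost in 8 of them for NO against GS and in 7 for NO against DM. The adjusted p ran from 0.00339 to 0.0991 in the former and from 0.000558 to 0.0888 in the latter. Among single libraries, leaving out any GS sample, NO replicate 1 or NO replicate 3 ended the call against GS (adjusted p = 0.0656, 0.0562 and 0.0991 without GS replicates 1, 2 and 3, 0.0512 without NO replicate 1 and 0.0619 without NO replicate 3). Leaving out DM replicate 1, DM replicate 2 or NO replicate 3 ended it against DM (adjusted p = 0.0774, 0.0888 and 0.0624). The call did not rest on NO replicate 2. Scaling to equal totals gave -0.35 (adjusted p = 0.083) and -0.42 (adjusted p = 0.0512).

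The partner of Kif23 and the other members of its role did not pass the test. Racgap1, looked up as the partner after the call of Kif23 was known, had 3642, 3738 and 3921 normalised counts in the GS samples, 4257, 3960 and 3314 in DM and 3684, 2810 and 3134 in NO. Its log2 fold change was -0.24 for NO against GS (adjusted p = 0.259, limma) and -0.26 for NO against DM (adjusted p = 0.236), with overlapping groups. Prc1 bundles antiparallel microtubules, Kif20a is a motor of the central spindle, Anln a scaffold of the contractile ring and Ect2 the exchange factor that activates RhoA at the cell equator. Across the 5 genes of the role the log2 fold changes ran from -0.34 to 0.04 in DM against GS, from -0.46 to 0.05 in NO against GS and from -0.50 to 0.25 in NO against DM. Anln had 3 DM values below all 3 GS values, with an adjusted p of 0.178 (limma).

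Spc25 encodes a subunit of the NDC80 complex, the part of the kinetochore that grips microtubules. The gene lies at chr2:69193895-69206194 (GRCm38, minus strand) without overlap. Its normalised counts were 910, 919 and 1201 in GS, 995, 824 and 601 in DM and 1213, 1715 and 1220 in NO. The lowest NO value (1213) lay just above the highest GS value (1201), and DM replicate 3 was the lowest sample and NO replicate 2 the highest. Spc25 was 1.726-fold higher in NO than in DM (log2 fold change 0.79, SE 0.21, 95% interval 0.33 to 1.24, adjusted p = 0.0292, limma). It was 1.362-fold of the GS level in NO (adjusted p = 0.152) and 0.789-fold in DM (adjusted p = 0.401), neither past the threshold.

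The call of Spc25 was lost in 6 of 21 alternative fits. Without NO replicate 2, the library with raised markers of other states, the log2 fold change was 0.62 (adjusted p = 0.0935), and without DM replicate 3 it was 0.59 (adjusted p = 0.086). Leaving out DM replicate 2 (adjusted p = 0.0696) or NO replicate 3 (adjusted p = 0.0566) also ended the call. The direction held in all 21.

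The other subunits of the NDC80 complex did not pass the test. Ndc80, the subunit that touches the microtubule, had 1303, 1311 and 1813 normalised counts in the GS samples, 1324, 1338 and 1156 in DM and 1433, 1863 and 1662 in NO, with all NO values above the DM values (log2 fold change 0.37, adjusted p = 0.142, limma). Nuf2, its partner in the outer dimer, differed by 0.01 between NO and DM (95% interval -0.38 to 0.40). Spc24, the partner of Spc25 in the inner dimer, is no member and was looked up after the call of Spc25 was known. It had 1055, 1110 and 1428 normalised counts in DM and 903, 760 and 933 in NO, where all NO values lay below the DM values (log2 fold change -0.46, adjusted p = 0.0577). The values of the dimer partners thus lay on opposite sides of 0, and that of Spc24 was not past the threshold.

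Among the other centromere genes, Cenpa is the histone H3 variant of centromeric chromatin, Cenpe a kinesin of the kinetochore and Cenpf a large protein of its outer layer. The median log2 fold change of the 6 genes of this role was -0.22 in DM against GS and 0.12 in NO against GS. It was 0.38 in NO against DM, the largest in size among roles of more than 1 gene. In NO against DM 1 of the 6 was called higher, against 9.01% of all genes. With so few genes this count says nothing particular about the role. DM replicate 3 lay 0.67 below the GS mean for Cenpe, 0.83 for Cenpf and 0.74 for Spc25 on the log2 scale. NO replicate 2 lay 0.66 above it for Cenpe and 0.78 for Spc25. Without NO replicate 2, the log2 fold changes in NO against DM were 0.042 (Cenpa), 0.184 (Cenpe), 0.298 (Cenpf), 0.281 (Ndc80), 0.074 (Nuf2) and 0.622 (Spc25). How far these libraries set the medians of the role was not tested.

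**Figure D3:**
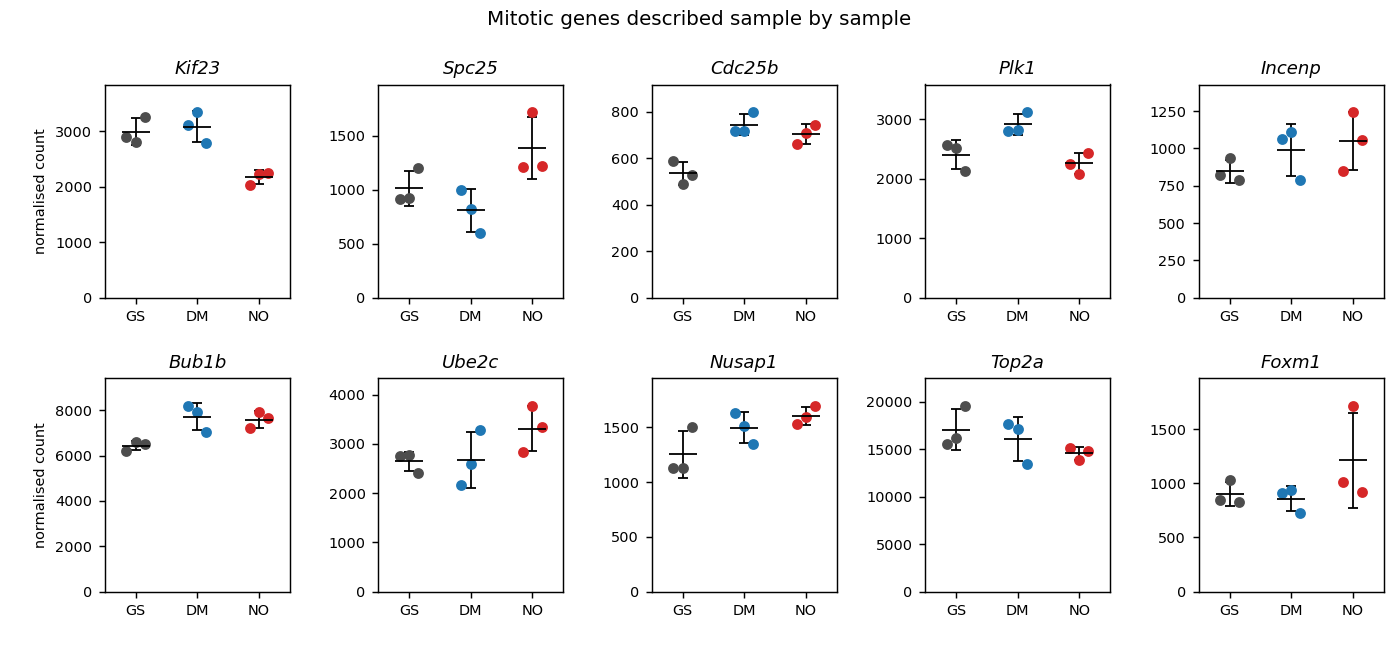
Normalised counts of 10 mitotic genes in GS, DM and NO (points, 1 per sample), with the mean (bar) and SD (whiskers, n = 3), on axes from 0. The NO samples of Kif23 lie between 2040 and 2257 and all others at 2788 or above, and the NO samples of Spc25 lie above all others by a narrow margin.

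Among the genes of mitotic entry, Cdc25b came nearest to the threshold. It encodes a phosphatase that activates Cdk1 with cyclin B at the centrosome. Its normalised counts were 589, 487 and 527 in GS, 718, 718 and 798 in DM and 660, 709 and 743 in NO. Both serum media lay above GS in every sample and overlapped with each other. The log2 fold change was 0.48 in DM (SE 0.13, adjusted p = 0.0547, limma) and 0.40 in NO (SE 0.13, adjusted p = 0.0545). In each of these comparisons it passed the test in 5 of 21 alternative fits, among them that without NO replicate 2 for DM and those without DM replicate 3 or NO replicate 1 for NO. Ccnb2, a B-type cyclin, had 2475, 2214 and 2690 normalised counts in the GS samples, 2891, 2867 and 2972 in DM and 3236, 2850 and 3421 in NO (log2 fold change 0.37 in NO against GS, adjusted p = 0.0623, limma). That difference passed in 6 of 21 alternatives, among them the fit without NO replicate 2. Over the 6 genes, which also hold Cdk1, its partners Ccna2 and Ccnb1 and the phosphatase Cdc25c, the log2 fold changes ran from -0.20 to 0.48, from -0.17 to 0.40 and from -0.08 to 0.12 in the 3 comparisons. The last range, NO against DM, was the narrowest.

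Plk1 is the kinase that promotes mitotic entry, centrosome maturation and cytokinesis. Its normalised counts were 2568, 2510 and 2123 in GS, 2803, 2822 and 3115 in DM and 2244, 2084 and 2438 in NO. DM lay above both other media in every sample, and GS and NO overlapped. The log2 fold change was 0.28 for DM against GS (adjusted p = 0.248, limma) and -0.37 for NO against DM (SE 0.13, adjusted p = 0.0738). The latter passed with sample weights, with the GC correction and with that correction and the replicate block. Aurka, the Aurora kinase of spindle poles, and Nek2, which separates centrosomes, had adjusted p-values of at least 0.335 in NO against GS.

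The chromosomal passenger complex, which corrects faulty attachments, was represented by its kinase Aurkb, its scaffold Incenp and survivin (Birc5). Incenp had 819, 936 and 791 normalised counts in the GS samples, 1066, 1109 and 790 in DM and 850, 1243 and 1054 in NO, with overlap between all media. Its log2 fold change in NO against GS was 0.29 (SE 0.18, adjusted p = 0.267, limma). The 3 genes ranged from -0.15 to 0.29 in that comparison and from -0.19 to 0.08 in NO against DM.

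No spindle checkpoint gene passed the test in any comparison. Bub1b, which encodes BubR1 of the inhibitor complex that binds Cdc20, had 6209, 6594 and 6508 normalised counts in the GS samples, 8182, 7912 and 7051 in DM and 7203, 7913 and 7664 in NO. All 6 values in the serum media lay above the GS values (log2 fold change 0.26 in DM, adjusted p = 0.266, and 0.24 in NO, adjusted p = 0.19, limma). The difference between NO and GS passed in 2 of 21 alternative fits, with quantile normalisation (0.46, adjusted p = 0.0285) and with sample weights. Over Bub1, Bub1b, Bub3, Mad2l1 and Ttk the log2 fold changes ran from -0.19 to 0.26 in DM against GS and from -0.27 to 0.24 in NO against GS. In NO against DM they ran from -0.10 to 0.04, with a smallest adjusted p of 0.716.

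Ube2c is the ubiquitin-conjugating enzyme that works with the APC/C. Its normalised counts were 2746, 2770 and 2418 in GS, 2159, 2589 and 3281 in DM and 2835, 3765 and 3336 in NO. The NO values lay above the GS values but overlapped with DM, whose samples were the most spread (log2 fold change 0.32 against each, adjusted p = 0.204 and 0.22, limma). The 4 genes of this step, Cdc20, Ube2c, Pttg1 and Espl1, had log2 fold changes from -0.36 to 0.19, from -0.23 to 0.32 and from -0.18 to 0.32 in the 3 comparisons.

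Of the spindle motors and assembly factors, Nusap1, which stabilises spindle microtubules near chromatin, was nearest to the threshold. It had 1125, 1127 and 1504 normalised counts in the GS samples, 1629, 1515 and 1347 in DM and 1533, 1590 and 1692 in NO, all NO values being above GS (log2 fold change 0.37, SE 0.15, adjusted p = 0.0949, limma). Kif11, which pushes spindle poles apart, Kif2c, which dismantles microtubules at centromeres, the chromokinesin Kif4 and Tpx2, the activator of Aurora A, completed the role, and NO against DM ranged from -0.08 to 0.18.

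Top2a, the topoisomerase that untangles sister chromatids, had 15493, 16143 and 19517 normalised counts in the GS samples, 17635, 17146 and 13439 in DM and 15126, 13806 and 14783 in NO. The NO values lay below the GS values (log2 fold change -0.22, adjusted p = 0.344, limma). Mki67, the proliferation antigen Ki-67, differed by 0.05 between NO and GS. Foxm1, which switches on many of the other genes, had 842, 1027 and 830 normalised counts in the GS samples, 912, 936 and 723 in DM and 1007, 1710 and 914 in NO. Only NO replicate 2 was high, and the groups overlapped (log2 fold change 0.45 for NO against DM, SE 0.22, adjusted p = 0.186). Without that sample it was 0.17 (adjusted p = 0.584).

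In GS and DM, but little in NO, the spread of the mitotic genes between the samples of a medium went along with base composition. The GC content of the members' transcripts ran from 40.1% to 56.1%, with a median of 47%. Across the 40 genes, the correlation of GC content with a gene's deviation from its medium mean was 0.76 and 0.55 in GS replicates 1 and 2 and -0.80 in GS replicate 3. It was -0.55 and -0.33 in DM replicates 1 and 2 and 0.56 in DM replicate 3, and -0.23, 0.08 and 0.15 in the NO replicates. These are descriptions over genes that share a library, and deviations within a medium sum to 0. Over 17952 genes the same coefficients were smaller in size, from -0.32 to 0.33. The 20 members with the lower GC content lay 0.19 above the medium mean in GS replicate 3 and 0.23 below it in DM replicate 3 (medians, log2 scale). In DM replicate 3, 47.5% of the members deviated by more than 0.2 from the medium mean. Of the same genes, 30% did in GS replicate 3, 15% and 20% in DM replicates 1 and 2, 20%, 22.5% and 7.5% in the NO replicates, and 0% in GS replicates 1 and 2. The share of all genes past this cut-off is not given here. The SD of the deviations was larger over all genes than over the members in every sample. It was 0.453 against 0.226 in DM replicate 3 and 0.363 against 0.15 in GS replicate 3.

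After a correction for GC content, chosen after seeing the data, the median log2 fold change of the members in DM against GS went from -0.05 to 0.04. The median went from -0.003 to 0.069 in NO against GS and from 0.033 to 0.006 in NO against DM. The number of members called became 1 in DM against GS, 4 in NO against GS and 3 in NO against DM. The share of all genes called after the correction is not given here, so these counts cannot be set against it. Within media, the median coefficient of variation of a member was 8.9% (GS), 12.4% (DM samples) and 9.9% (NO samples), against 15.1%, 17.2% and 21.5% for all genes. All genes include many of lower level than any member, and the part of level in this contrast was not tested.

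**Figure D4:**
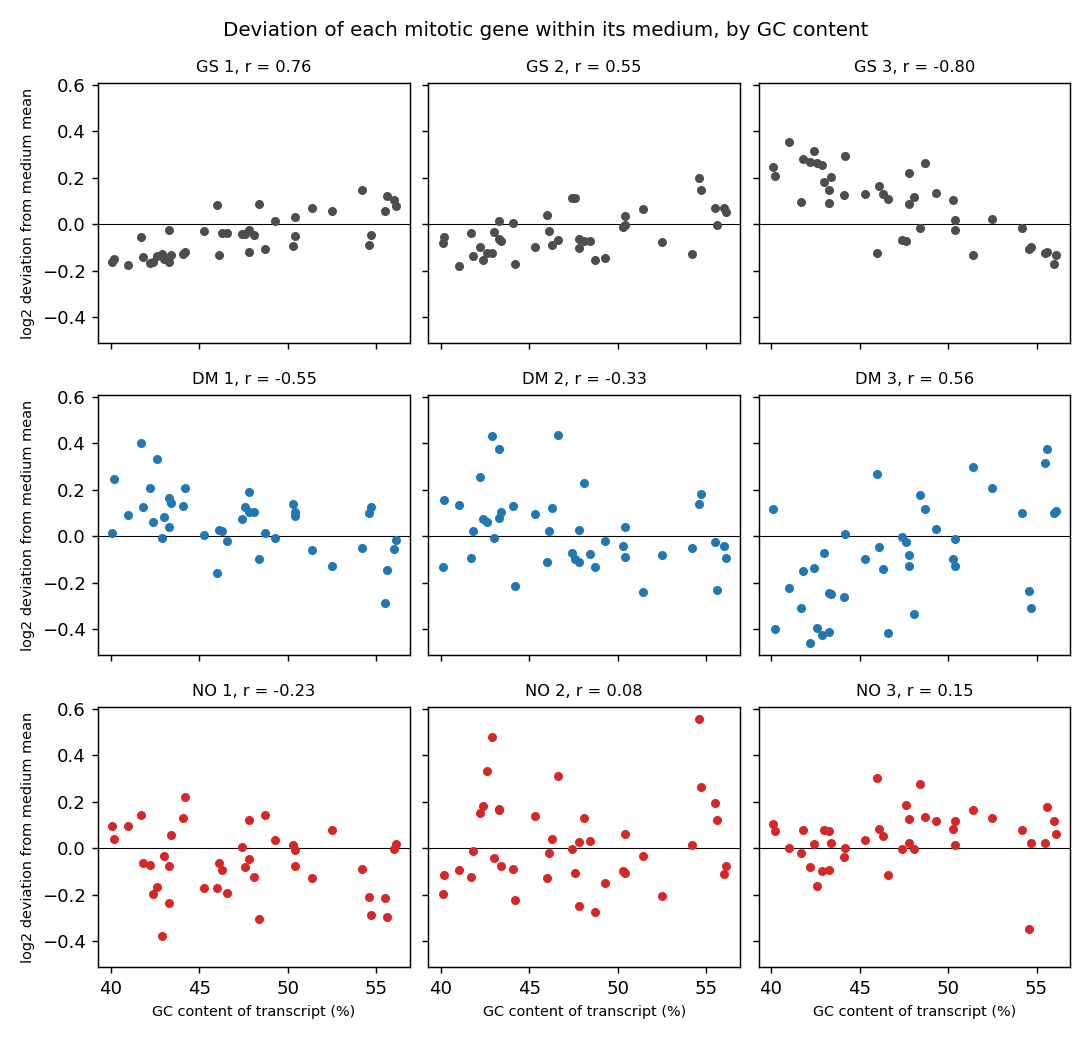
Deviation of each of the 40 mitotic genes from the mean of its medium (vertical axis, log2 scale) by the GC content of its transcript in percent (horizontal axis), 1 panel per sample with Pearson's r. The slope is upward in GS replicates 1 and 2 and DM replicate 3, downward in GS replicate 3 and DM replicates 1 and 2, and slight in the NO samples.

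Among 100 other genes of mitosis, listed by function, 0 were higher and 2 lower in DM than in GS, 7 higher and 2 lower in NO than in GS, and 3 higher and 1 lower in NO than in DM. All these shares lay below those of all genes, which were 4.37% and 2.32%, 13.4% and 6.64%, and 9.01% and 5.24%. The 9 calls in NO against GS became 1 without GS replicate 1, GS replicate 2, NO replicate 2 or NO replicate 3, 2 without GS replicate 3, 4 without DM replicate 1 and 33 with sample weights. The 4 in NO against DM became 0 without DM replicate 1, DM replicate 2 or NO replicate 3, 1 without NO replicate 2, 2 without DM replicate 3 or any 1 GS sample, 11 without NO replicate 1 and 29 with sample weights. The 2 in DM against GS became 0 without GS replicate 2, GS replicate 3 or DM replicate 3, and 1 without GS replicate 1, DM replicate 1 or NO replicate 3. The medians were -0.06, -0.08 and 0.05. Cenpt, which links centromeric chromatin to the NDC80 complex, had 2024, 2383 and 2118 normalised counts in the GS samples, 2625, 2803 and 3121 in DM and 3714, 6152 and 4892 in NO. It was 2.219-fold higher in NO than in GS (adjusted p = 0.00146, limma) and 1.694-fold higher than in DM (adjusted p = 0.0172), with NO replicate 2 the highest. The former call held in all 21 alternative fits and the latter was lost in 5, among them those without DM replicate 1, DM replicate 2 or NO replicate 3. Ckap2, a microtubule-associated protein of the spindle, had 2800, 6502 and 4328 normalised counts in NO and 2207, 2462 and 2221 in DM (log2 fold change 0.90, adjusted p = 0.0299). That call ended without any 1 of the 3 DM samples and without NO replicate 2 or 3. Against GS its log2 fold change was 0.78 (adjusted p = 0.0398), a call that ended without any 1 of the GS samples, DM replicate 1 or 2, or NO replicate 2 or 3. Hmmr (0.60, adjusted p = 0.0197), Kifc1 (0.52, adjusted p = 0.0364) and Gtse1 (0.52, adjusted p = 0.0363) were higher in NO than in GS. The cohesin regulator Pds5a was lower in NO than in GS (-0.53, adjusted p = 0.0277) and than in DM (-0.49, adjusted p = 0.0481), and Mastl, the Greatwall kinase, was higher in NO than in DM (0.65, adjusted p = 0.0496). In DM against GS the cohesin subunit Stag1 (-0.68, adjusted p = 0.0229) and the APC/C subunit Anapc10 (-0.99, adjusted p = 0.0354) were lower. Each of the calls from Hmmr to Anapc10 was lost in 5 to 14 of 21 alternative fits. Those of Hmmr, Kifc1, Gtse1 and Pds5a against GS ended without GS replicate 1 or 2 or NO replicate 2 or 3, those of Pds5a and Mastl against DM without any 1 sample but NO replicate 1, that of Stag1 without any 1 GS sample or DM replicate 3, and that of Anapc10 without GS replicate 2 or 3, DM replicate 1 or 3 or NO replicate 3. Kifc1, Gtse1 and Pds5a ended without GS replicate 3 as well, and Kifc1 and Gtse1 without DM replicate 1. Without NO replicate 2, the log2 fold changes against GS were 0.54 for Hmmr (adjusted p = 0.0513), 0.38 for Kifc1 (adjusted p = 0.105), 0.45 for Gtse1 (adjusted p = 0.0937), -0.40 for Pds5a (adjusted p = 0.0761) and 0.48 for Ckap2 (adjusted p = 0.102). Those against DM were -0.36 for Pds5a (adjusted p = 0.142), 0.52 for Mastl (adjusted p = 0.157) and 0.60 for Ckap2 (adjusted p = 0.0658). With the replicate number as a block, adjusted p was 0.0644 for Pds5a and 0.0623 for Mastl in NO against DM. The block also ended the calls of Gtse1 (adjusted p = 0.0506) and Kifc1 (adjusted p = 0.0517) in NO against GS. In DM against GS it ended that of Anapc10 (adjusted p = 0.0636).

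Of 15 regulators of the programme, 1 was higher and 1 lower in DM than in GS (against 4.37% and 2.32% of all genes), 1 was higher and 0 lower in NO than in GS (against 13.4% and 6.64%), and 2 were higher and 2 lower in NO than in DM (against 9.01% and 5.24%). With so few genes these counts say nothing particular about the list. The count in NO against DM became 2 without DM replicate 1 or DM replicate 3, and that in NO against GS became 2 without DM replicate 3 or NO replicate 1. Cdkn1a, which encodes the Cdk inhibitor p21, had 3839, 3758 and 3288 normalised counts in the GS samples, 1462, 1487 and 1976 in DM and 2535, 4859 and 3663 in NO. It was lower in DM than in both other media without overlap. The log2 fold change was -1.15 for DM against GS (SE 0.21, adjusted p = 0.0071, limma), 1.13 for NO against DM (SE 0.21, adjusted p = 0.00801) and -0.02 for NO against GS (95% interval -0.49 to 0.44), and no alternative ended either call. Without NO replicate 2 the NO to DM difference was 0.91 (adjusted p = 0.0137). In the same NO to DM comparison the median of the mitotic genes was 0.03. Whether the levels of Cdkn1a and of the mitotic genes are related was not tested.

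Rbl2, which encodes the p130 protein of the DREAM complex, had 322, 359 and 351 normalised counts in the GS samples, 395, 472 and 339 in DM and 578, 1056 and 676 in NO. It was 2.163-fold higher in NO than in GS (adjusted p = 0.00481, limma) and 1.867-fold higher than in DM (adjusted p = 0.02). The first held in every alternative, and the second was lost in 4, among them those without DM replicate 1 or DM replicate 3. Exons of Aktip and Gm45464 overlap 21% of its exons. E2f8, a repressor of E2F target genes, had 454, 479 and 382 normalised counts in the GS samples, 726, 772 and 789 in DM and 496, 367 and 437 in NO. It was highest in DM, by 0.80 over GS (adjusted p = 0.00923) and with NO at -0.82 relative to DM (adjusted p = 0.00797), and both calls held in every alternative. Gm2788 overlaps 11.2% of its exons.

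E2f4, the E2F factor of the DREAM complex, fell from DM to NO, with 4362, 4625 and 5661 normalised counts in DM and 3536, 2799 and 3748 in NO (log2 fold change -0.54, adjusted p = 0.0431, limma). This call was lost in 14 of 21 alternatives, including the omission of any GS or DM sample and of NO replicate 2 or 3, and with the replicate number as a block (adjusted p = 0.0591). Without NO replicate 2 the log2 fold change was -0.41 (adjusted p = 0.131). Mybl2 had 15870, 15722 and 13278 normalised counts in the GS samples, 20489, 20824 and 22991 in DM and 17230, 18048 and 21565 in NO. Its values in both serum media lay above GS but did not pass the test (log2 fold change 0.52, adjusted p = 0.061, and 0.34, adjusted p = 0.129, limma). The former passed without NO replicate 2. Trp53 (NO against DM -0.58, adjusted p = 0.0861) and E2f1 were not called in any comparison.

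**Figure D5:**
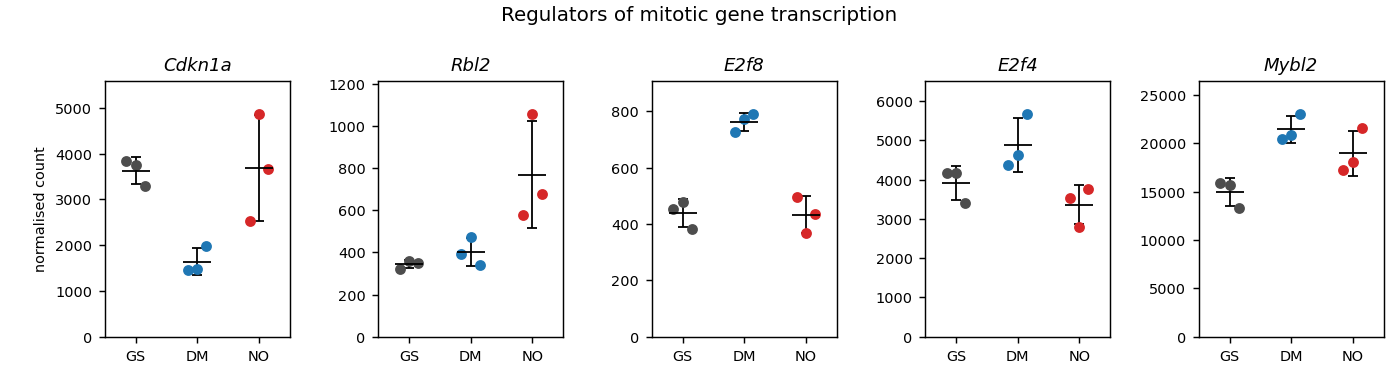
Normalised counts of 5 regulators of cell cycle transcription in GS, DM and NO (points, 1 per sample), with the mean (bar) and SD (whiskers, n = 3), on axes from 0. Cdkn1a is lowest in DM, E2f8 highest in DM and Rbl2 highest in NO, with NO replicate 2 on top for Cdkn1a and Rbl2.

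Genes of S phase, which precede the mitotic genes in the cycle, were set beside them. Of 20 genes of replication licensing, polymerases and nucleotide supply, 0 were called in DM against GS or in NO against DM (limma). In these comparisons 1 and 4 of the 20 had an unadjusted p under 0.05, against 3611 and 5675 of all 18156 genes. Only 1, Gins1, was lower in NO than in GS. Of all genes, 4.37% were higher and 2.32% lower in DM than in GS. The shares were 13.4% and 6.64% for NO against GS, and 9.01% and 5.24% for NO against DM. Gins1, a subunit of the replicative helicase, had a log2 fold change of -0.70 (adjusted p = 0.0149), which was lost without GS replicate 1 (adjusted p = 0.0627). The median log2 fold change of the 20 was -0.01 in DM against GS, -0.21 in NO against GS and -0.25 in NO against DM, with 18 and 17 of the 20 below 0 in the comparisons with NO. Of all 18156 genes, 9309 lay below 0 in NO against GS and 9056 in NO against DM, with medians of -0.02 and 0.00. The mitotic genes had medians of -0.00 and 0.03 in these 2 comparisons. The difference between these lists was not tested.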

How the data were processed

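Total RNA of 9 mESC samples (3 each in GS, DM and NO) was depleted of ribosomal RNA and sequenced on an Ion Torrent Proton. According to the methods of the study and the submitters' processing notes, the authors checked reads with FastQC 0.11.2, trimmed them with Reaper, aligned them to GRCm38 with STAR 2.4.0a, counted them per gene with featureCounts 1.4.5-p1 and scaled them with DESeq2. What was deposited is a normalised score for each gene: a count over the sample's size factor, rounded. Raw counts were not used here, so no count model was fitted. Recomputed size factors were 1.0038 to 1.0083. Depth was inferred from gaps among low values.

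Models of log2(value + 1) were fitted to 18156 genes whose mean exceeded 5, with limma 3.58.1 in R 4.3.3, all 9 samples in the same fit, a mean-variance trend and Benjamini-Hochberg adjustment over all genes. Fold changes on this scale understate changes of low genes. The procedure was tested on simulated data. The members and lists were chosen with earlier results of these data known. Members called, and in each other role the member with the smallest adjusted p, are described sample by sample, and genes of other lists only where called (up to 5 per list and comparison), besides Cdkn1a, Trp53, Mybl2 and E2f1. Racgap1, Spc24, Ndc80 and Ccnb2 were added after their values were seen.

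Replicate numbers recur in the labels of each medium. Deviations from the medium mean correlated weakly between same-numbered NO and DM samples (0.16, 0.17 and 0.30). Between DM and GS the coefficients were of similar size but not positive throughout (-0.18, 0.02 and -0.23). Between NO and GS they were smaller (-0.05, 0.05 and -0.11). The main fit used no pairing, so its p-values, also those of NO against DM, are unpaired. The replicate number entered only in alternative fits, as a block over all 3 media. Coordinates, lengths and overlaps are from GENCODE M21, and near-identical copies were found with blastn 2.17.0. The 21 alternative fits comprised other samples, filters, pseudocounts, scalings, moderation, sample weights, the replicate block, a GC correction (lowess, span 0.3) and the omission of each sample.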

Additional observations from a re-analysis of the deposited data

How the results depend on the processing

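The direction of every member's called difference held in all alternatives. Of 2520 values for single members, 2457 stayed on their side of the threshold, 21 lost and 42 gained a call, and 0 reversed. Most of these values belong to differences that were not called and so could not lose a call. All 21 losses were of Kif23 (8 of 21 fits against GS and 7 of 21 against DM) or Spc25 (6 of 21 against DM). Differences that were not called could change sign, as that of Ccna2 in DM against GS did (-0.115 to 0.033). The number of members called depended on the setting. For the alternative fits the share of all genes called is not given here. A higher or lower count of any list in them therefore cannot be read as particular to that list. For DM against GS (0 members called) it was 1 with only the 6 samples compared, with a minimum mean of 50, with equal totals and with the GC correction alone or with the replicate block, and 2 with sample weights. For NO against GS (1 called) it was 2 with a minimum mean of 50, 3 with equal totals, 3 with quantile normalisation, 4 with the GC correction alone or with the replicate block, 9 with sample weights, 0 with no mean-variance trend and 0 with at least a 2-fold change. For NO against DM (2 called) it was 0 with only the 6 samples, 1 with equal totals, 1 with quantile normalisation, 9 with sample weights, 0 with no mean-variance trend and 0 with at least a 2-fold change. Sample weights gave NO replicate 3 a weight of 5.52 and NO replicate 2 one of 0.25. Leaving out 1 library gave 0 to 1 members in DM against GS (1 without NO replicate 2), 0 to 2 in NO against GS and 0 to 2 in NO against DM. The count for NO against GS was 0 without GS replicate 1, GS replicate 2 or NO replicate 3, and 2 without DM replicate 3 or NO replicate 2. The count for NO against DM was 0 without DM replicate 2 or NO replicate 3, and 1 without DM replicate 1, DM replicate 3 or NO replicate 2. With the replicate number as a block (replicate block) the counts were 0, 1 and 2 and no member's call changed. Quantile normalisation moved the median of all genes by -0.12 in NO against GS, where the members' median became 0.14, and equal totals moved it by 0.09, with the members at 0.11. Where not said otherwise, the cause was not tested. With 3 samples per medium, differences of single mitotic genes under about 1.5-fold were often not detectable.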
